A study of Rattus norvegicus with 6 samples.

Results

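Genes with a transient peak at postnatal day 2 (P2) were examined in the choroid plexus of the rat lateral ventricles. They were chosen from the measured values themselves. A probe set that named a single gene was taken when its P2 mean reached 200 units, when that mean was at least 1.5 times both the E19 mean and the adult mean, and when the lower P2 pool lay above all 4 E19 and adult values. Each gene was represented by its qualifying probe set with the highest P2 mean. This gave 189 genes of the 14217 with a single-gene probe set. With the rule turned round, so that it asked for a dip at P2, 86 genes were found.

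The data were MAS5 signals from 6 Affymetrix Rat 230 2.0 arrays, each read from the pooled RNA of several Sprague-Dawley rats, with 2 arrays at embryonic day 19 (E19), 2 at P2 and 2 in the adult. The adult animals were males, and the sex of the embryos and pups was not found in the sources used here. The labels and methods name no experimental treatment and no mutation. The dams of the E19 fetuses were under inhaled isoflurane, no anaesthetic is named for the P2 and adult collections, and this exposure and the stage cannot be told apart. Pools of a stage were separate collections of plexuses, whether they came from different litters is not stated, and p values therefore measure the spread between pools only. A signal unit is the MAS5 intensity after each array was scaled to a trimmed mean of 499.98 units, and 100 units is taken here as the limit below which a level is not resolved. Of all probe sets, 53.3 to 53.5% lay at or over that limit at E19, 52.7 to 53.5% at P2 and 50.02 to 51.02% in the adult. Choroid plexus epithelial markers on a list of 16 tested genes summed to 118254 and 119946 units at E19, 128835 and 125878 units at P2, and 167830 and 163275 units in the adult, so that defining markers of the labelled tissue were abundant at every stage.

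The choroid plexus is an epithelium folded over a stroma of fibroblasts, macrophages and fenestrated vessels, and it makes the cerebrospinal fluid and controls what passes between blood and that fluid. Birth changes the fuel that reaches such a tissue. The fetus lives mainly on placental glucose, whereas the suckling rat takes in fat-rich milk and burns fatty acids and ketone bodies. In the same days the plexus goes on growing, and its vessels and stroma are remodelled.

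Peaks were modest in most of these genes. The ratio of the P2 mean to the higher of the other means ran from 1.501 to 5.81 with a median of 1.70. It reached 2 in 54 genes and 3 in 11, and stayed under 2 in 135. The highest value was that of Ly6i, which like 2 others of the 11 (Uhrf1 and Cxcl14) had all 4 E19 and adult pools under 100 units, so that its ratio is not a measured fold. Of the genes resolved at another stage, 8 reached 3, with Cnmd the highest at 4.09. With values under 100 units set to 100, 54 genes reached 2 and 7 reached 3, up to 4.43 for Ephx2 on geometric means. P2 means ran from 200.1 to 7518 units with a median of 530.2, and 50 genes reached 1000 units. E19 was the higher of the other stages in 152 genes and the adult in 37. Both adult pools lay under 100 units in 52 genes, both E19 pools in 5, and 4 of these genes were unresolved at both other stages. These values chose the genes and are given as a description without a test.

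**Figure D1:**
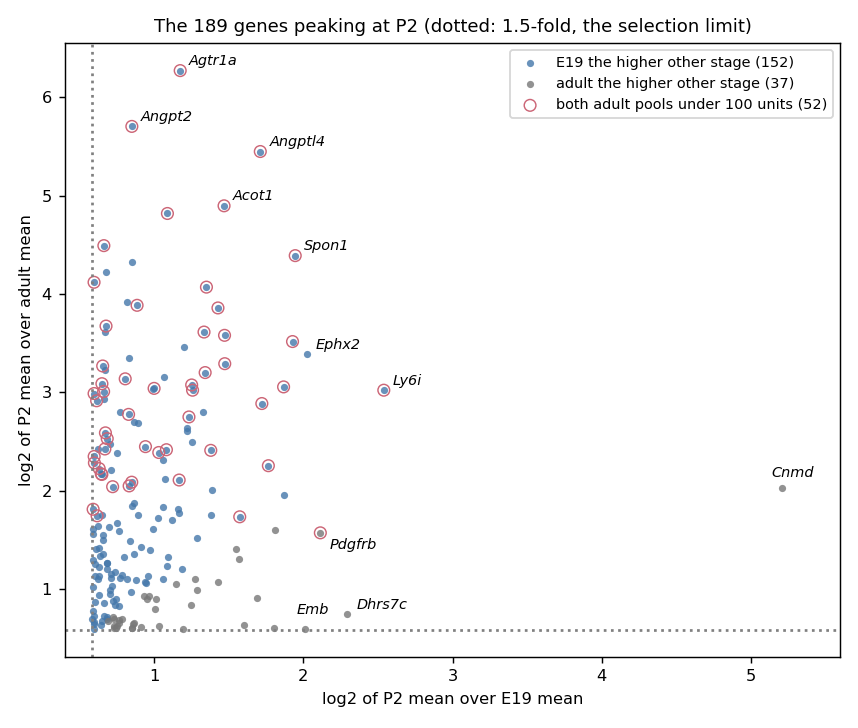
The 189 genes by the log2 ratio of their P2 mean to the E19 mean (horizontal) and to the adult mean (vertical), with dotted lines at 1.5-fold. Most points lie close to the E19 limit and spread upwards, with E19 the higher other stage in 152 genes, and the rings mark 52 genes with both adult pools under 100 units, for which the plotted adult ratio is not a measured fold.

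The threshold cut through a continuous range. Just inside the 1.5-fold limit were Dtymk (1.501), Cygb (1.504), Tmed2 (1.505), Tal1 (1.506) and Iqcc (1.507). Just outside it were Nid2-ps16 (1.496), Crip1 (1.495), Klhdc1 (1.493), Slco3a1 (1.491) and Rfc2 (1.489). Near the 200-unit limit, Ccno (200.1 units at P2), Npff (220.6), Pdgfrb (221.1), Capg (221.3) and Tyrobp (221.4) were kept. Luc7l3 (198.3 units), Stmn2 (194.5), Folr2 (194.2), Lnpk (193.8) and C5ar1 (191.1) were not. The macrophage genes Folr2 and C5ar1 thus missed the list by their level alone.

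The P2 pools of the 189 genes lay a median of 1.15-fold apart. That was wider than the median of 1.09-fold over the 13211 probe sets with a P2 mean of at least 200 units. Pool 1 was the higher in 102 genes and pool 2 in 87. The 2 pools lay over 1.5-fold apart in 26 of the 189 genes, a larger share than the 2.66% of those 13211 probe sets. Of those 26, 17 were higher in pool 1 (among them Pdk4, Cxcl14, Pdgfrb, Angpt2, Per2, Klf11, Fabp7, Apoc1, Uhrf1, Aebp1, Col12a1, Fry, Wbp4 and LOC100911221) and 9 in pool 2 (among them Cnmd, Fcrl2, Ly6i, Adm, Serpina6, Ccno, Aard and Myh1). The widest gap was that of Cnmd, chondromodulin, with 499.6 and 1181 units and 2.36-fold.

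The contrast that the rule left free was the adult against E19. Tested with limma over 17808 probe sets, 102 of the 189 genes were lower in the adult than at E19 and 8 were higher, while 79 were not called at an adjusted p under 0.05. Lower calls thus made up 54% of the genes, against 30.4% of all probe sets tested, and higher calls 4.23% against 24.2%. The rule holds both stages below P2, so that these percentages over all probe sets are a background and not a matched expectation. The median log2 difference was -0.65 in the 189 genes and -0.05 over all probe sets. With values under 100 units set to 100, the median in the 189 genes was -0.48. Of the 102 lower genes, 48 had both adult pools under 100 units, and 64 kept the call in each of the 6 fits that lacked a single array, as did 5 of the 8 higher genes. Centring each array on its median changed the counts to 83 lower and 23 higher, with the median of all probe sets then at 0.25.

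**Figure D2:**
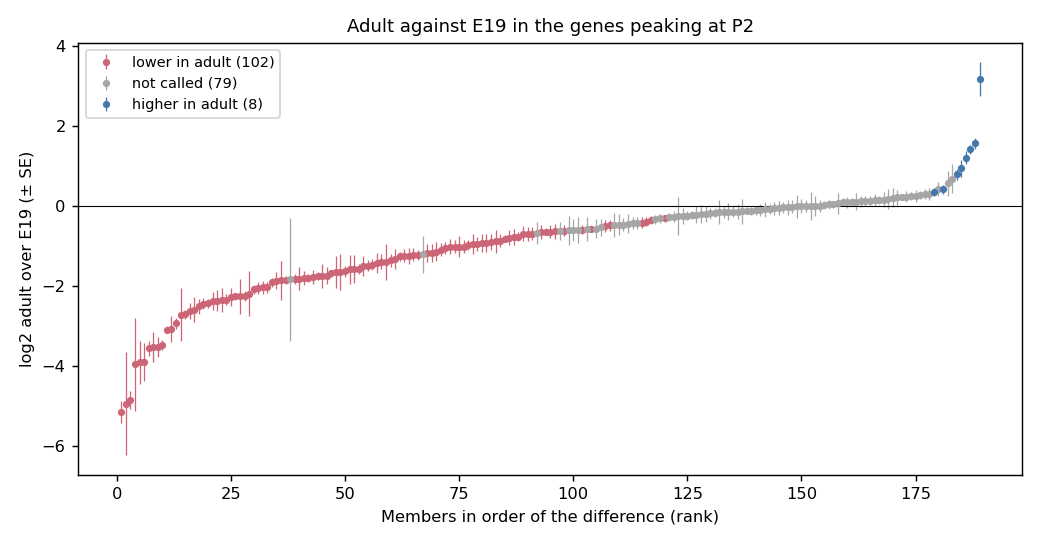
The log2 difference of adult over E19 in each of the 189 genes, in order of size, with the standard error of the fit as bars. The 102 genes called lower fill the left of the plot, 8 called higher sit on the right, and the median of all genes shown is -0.65.

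In the 8 genes that were higher in the adult than at E19, the rule itself held the adult level of the selected probe set below P2. Brighter probe sets of Ogn, Bdh1 and Eif4a2 were highest in the adult. Emb, embigin, a chaperone of monocarboxylate transporters, had 1227 and 1145 units at E19, 4757 and 4807 units at P2, and 3388 and 2924 units in the adult (log2 adult over E19 1.41 ± 0.11, adjusted p = 0.00053). Slco1a4, an organic anion transporter of barrier tissues, had 109 and 90.6 units at E19, 397 and 301 units at P2, and 229.8 and 228 units in the adult. Its adult pools both lay above both E19 pools (log2 adult over E19 1.20 ± 0.17, adjusted p = 0.0034). Dhrs7c, a short-chain dehydrogenase, had 130.2 and 164 units at E19, 679 and 764 units at P2, and 425 and 435 units in the adult (log2 adult over E19 1.56 ± 0.14, adjusted p = 0.00085). Cnmd was listed at 21.0 and 24.5 units at E19 and at 233 and 178 units in the adult, at least 2.04-fold higher in the adult (adjusted p = 0.0028), and this call was not made once values under 100 units were set to 100. Ogn also kept its call without any 1 array and is described with the matrix genes. Eif4a2 lost its call without E19 pool 1 or E19 pool 2 (log2 0.86 to 1.01), Bdh1 without E19 pool 1, adult pool 1 or adult pool 2 (log2 0.30 to 0.47) and Cd14 without E19 pool 1, E19 pool 2, adult pool 1 or adult pool 2 (log2 0.29 to 0.41).

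For the description that follows, 104 of the 189 genes were sorted into 11 groups by what they are known to do. The groups were formed after the values had been seen, so that their counts carry no test. Of the 189 genes, 40 belonged to 1 of 26 lists of cell type and process markers, and for these lists the other genes on them were tested between stages. Members were set aside because they rose at P2, which can only lower the count of higher calls in P2 over E19 among the rest. Counts at an unadjusted p under 0.05 (limma) have no share of all probe sets beside them. They cannot be set against the shares at an adjusted p.

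Genes of fuel use and lipids formed a group of 12 with a median ratio of 2.33, and 8 of them had P2 means of at least 1000 units. Angptl4 encodes a secreted inhibitor of lipoprotein lipase that is induced by fatty acids. It had 407 and 430.5 units at E19, 1592 and 1151 units at P2, and 16.9 and 46.0 units in the adult. Both P2 pools were above every other pool, as the rule required, 3.27-fold the E19 mean and at least 13.5-fold the adult level. Acot1, a cytosolic acyl-CoA thioesterase, followed the same order with 425 and 436 units at E19, 1314 and 1067 units at P2, and 24.9 and 55.1 units in the adult. Angptl4 was at least 4.19-fold lower in the adult than at E19 (adjusted p = 0.0022), and Acot1 was at least 4.3-fold lower in the adult than at E19 (adjusted p = 0.0014).

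Acaa2, the last enzyme of mitochondrial beta-oxidation, was the brightest of the oxidation genes. It had 1506 and 1628 units at E19, 4803 and 4372 units at P2, and 1788 and 1673 units in the adult, and its adult pools lay just above its E19 pools without a call (log2 adult over E19 0.14 ± 0.10, adjusted p = 0.27). The P2 mean was 2.93-fold the E19 mean and 2.65-fold the adult mean. Pdk4, the kinase that turns off pyruvate dehydrogenase when fat is burnt, had 391 and 509 units at E19, 1296 and 748 units at P2, and 469 and 418 units in the adult. Here the P2 pools lay 1.73-fold apart, and the E19 and adult pools overlapped (log2 adult over E19 -0.01 ± 0.29, adjusted p = 0.98). Acot7, a brain acyl-CoA thioesterase, had 1472 and 1535 units at E19, 2887 and 2982 units at P2, and 1563 and 1520.2 units in the adult, with very close pools at every stage. Bdh1 interconverts the ketone bodies. Its selected probe set had 201 and 234 units at E19, 461 and 429.9 units at P2, and 277 and 301 units in the adult. A brighter probe set of the same gene was highest in the adult, with 157 and 191 units at E19, 425 and 335 units at P2, and 516 and 483 units in the adult.

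The 250 bases before the start of transcription of 4 genes of this group are shown, since these genes peaked together and their promoters can be compared. Capitals mark matches on either strand to TATAAA (the TATA box), to CCAAT, to GGGCGG (bound by Sp1) and to CACGTG (bound by helix-loop-helix factors). Where matches overlap the capitals run together. The windows are from RefSeq on GRCr8, read 5′ to 3′ on the strand of the gene. They lie at chr7:15258682-15258931 on the minus strand for Angptl4, at chr6:109367024-109367273 on the plus strand for Acot1, at chr4:34568330-34568579 on the minus strand for Pdk4 and at chr1:131793426-131793675 on the minus strand for Arrdc4. The Angptl4 window precedes a start that lies 1290 bases inside the span of the gene in the same annotation (chr7:15252450-15259971), so that another start lies upstream of it, whereas the starts of Acot1 and Pdk4 are at the edge of the gene and that of Arrdc4 lies 13 bases inside.
Angptl4: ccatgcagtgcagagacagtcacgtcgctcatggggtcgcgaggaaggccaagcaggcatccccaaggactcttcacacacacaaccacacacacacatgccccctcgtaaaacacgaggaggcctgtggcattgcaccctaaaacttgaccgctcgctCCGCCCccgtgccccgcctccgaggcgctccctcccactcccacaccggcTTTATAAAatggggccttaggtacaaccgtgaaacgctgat
Acot1: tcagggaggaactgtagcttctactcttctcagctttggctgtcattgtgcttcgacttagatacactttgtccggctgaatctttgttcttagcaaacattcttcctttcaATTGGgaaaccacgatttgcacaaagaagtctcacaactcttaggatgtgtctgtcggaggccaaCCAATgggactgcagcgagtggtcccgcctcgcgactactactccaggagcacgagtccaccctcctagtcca
Pdk4: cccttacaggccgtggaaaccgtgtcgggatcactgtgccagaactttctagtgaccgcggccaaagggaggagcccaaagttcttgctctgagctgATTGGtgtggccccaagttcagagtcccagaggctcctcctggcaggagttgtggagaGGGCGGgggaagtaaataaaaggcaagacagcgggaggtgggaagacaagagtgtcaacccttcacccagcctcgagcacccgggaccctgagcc
Arrdc4: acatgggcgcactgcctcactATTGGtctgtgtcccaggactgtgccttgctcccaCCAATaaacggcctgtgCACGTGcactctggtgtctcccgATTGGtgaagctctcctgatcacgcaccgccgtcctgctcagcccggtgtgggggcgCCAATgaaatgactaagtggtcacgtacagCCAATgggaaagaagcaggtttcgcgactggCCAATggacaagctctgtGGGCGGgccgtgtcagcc

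The TATAAA of Angptl4 lay close to that internal start, and Arrdc4 held 6 CCAAT matches with 1 CACGTG match. The letters AGGTCA, a core element of many nuclear receptors, had 0 matches in the 300-base windows of these 4 genes, which run from 250 bases before to 50 after the start. Over the 141 of the 189 genes that had such a window, AGGTCA was found in 15.6%, against 15.7% of all 27457 windows and 12.7% of the 11559 windows of the other genes on the array. GGGCGG was found in 58.2% of the 141 windows, against 34.9% of all windows and 57.5% of those of the other array genes. CACGTG was in 7.09, 6.65 and 8.96% of them in the same order, and TATAAA in 10.6, 14.3 and 8.43%. These shares are matches of letters and not binding sites. In 55 of the 141 windows the start lay over 250 bases inside the span of its gene, so that the window is that of 1 of several starts.

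Txnip and Arrdc4, related arrestin-like proteins that restrain glucose uptake and whose transcription follows glucose, both peaked at P2. Txnip was the brightest of the 189 genes, with 4265 and 5172 units at E19, 7591 and 7445 units at P2, and 567 and 661 units in the adult. Arrdc4 had 274 and 246 units at E19, 579.6 and 663 units at P2, and 96.3 and 124 units in the adult. Both were lower in the adult than at E19 (Txnip, log2 adult over E19 -2.94 ± 0.14, adjusted p = 0.00015; Arrdc4, log2 adult over E19 -1.25 ± 0.16, adjusted p = 0.0024). Ephx2, the soluble epoxide hydrolase that degrades lipid epoxides, had 357 and 139.9 units at E19, 812 and 1206 units at P2, and 100.4 and 92.8 units in the adult. Its E19 pools differed widely from each other, and both lay below the lower P2 pool, as the rule required. Hpgd, which inactivates prostaglandins, had 381 and 393 units at E19, 653 and 884 units at P2, and 87.1 and 101 units in the adult (log2 adult over E19 -2.05 ± 0.17, adjusted p = 0.00068), and its other probe set qualified too. Retsat, a retinol saturase, had 470.4 and 521 units at E19, 987 and 1366 units at P2, and 685 and 631 units in the adult. Apoc1, an apolipoprotein, had 100.4 and 103 units at E19, 316 and 197 units at P2, and 22.2 and 19.7 units in the adult.

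**Figure D3:**
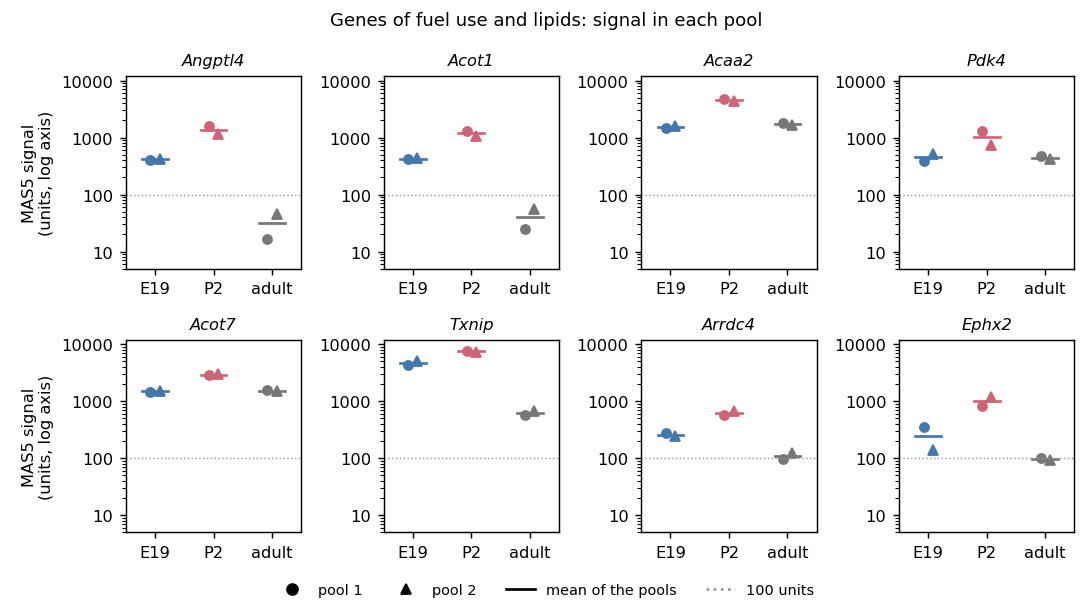
MAS5 signal of 8 genes of fuel use and lipids in each of the 6 pools, on a log axis, with a bar at the mean of each stage and a dotted line at 100 units. By the rule both P2 pools are the highest points in each panel. The adult points of Acaa2, Pdk4 and Acot7 lie close to the E19 points, whereas those of Angptl4 and Acot1 lie under 100 units.

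Few other genes of fatty acid oxidation were called between E19 and P2. On a list of 38 such genes 25 were tested, of which 21 were outside the 189. Of those 21, Slc16a1, the monocarboxylate transporter that carries lactate and ketone bodies, was higher at P2 than at E19 (log2 1.11 ± 0.19 (SE), adjusted p = 0.039), against 3.62% of all probe sets, after 4 tested genes had been set aside as members of the 189. It had 295 and 288 units at E19, 619 and 641 units at P2, and 744 and 1083 units in the adult. With any 1 of the E19 or P2 pools left out, 0 list genes outside the 189 were called higher at P2 than at E19, where 33 of 478 had been called with all arrays (limma). At an unadjusted p under 0.05, 7 of the 21 oxidation genes were higher and 2 lower, and the share of all probe sets at that threshold was not computed. In adult over P2, 8 of the 21 were higher and 6 lower, against 21.8 and 27.4% of all probe sets. Acadm, Hadha, Hadhb, Acadvl and Cpt1a, core enzymes of the same pathway, were not called in P2 over E19.

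Vessel genes made a second group, with 12 members, of which 11 were lower in the adult than at E19, and 9 of these held without any 1 array. Lower calls were 54% in all the selected genes and 30.4% over all probe sets. Sox17, a transcription factor of arterial endothelium, had 239 and 229 units at E19, 637 and 549 units at P2, and 62.8 and 66.1 units in the adult. Apln encodes apelin, a peptide of sprouting endothelium, and had 258 and 171 units at E19, 460.4 and 451 units at P2, and 24.4 and 7.92 units in the adult. Angpt2, the angiopoietin that loosens vessels before they sprout or regress, had 588 and 625 units at E19, 1316 and 872 units at P2, and 19.1 and 22.9 units in the adult. Egfl7, a matrix protein secreted by endothelium, had 632 and 557 units at E19, 971 and 1234 units at P2, and 191 and 152 units in the adult. In each of the 4 the adult pools were the lowest, with no overlap between the E19 and adult pools. The rule itself placed the P2 pools above both. Sox17 was at least 2.34-fold lower in the adult than at E19 (adjusted p = 0.00025), Apln at least 2.1-fold lower in the adult than at E19 (adjusted p = 0.0033) and Angpt2 at least 6.07-fold lower in the adult than at E19 (adjusted p = 0.00014). Egfl7 was measured at all stages (log2 adult over E19 -1.80 ± 0.18, adjusted p = 0.0011).

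The chemokine Cxcl12 and its receptor Cxcr4, which guide endothelial and stem cells, peaked together. Cxcl12 had 827 and 894 units at E19, 1429 and 1379 units at P2, and 242 and 265 units in the adult (log2 adult over E19 -1.76 ± 0.10, adjusted p = 0.00022). Cxcr4 had 279 and 265 units at E19, 452 and 401 units at P2, and 55.4 and 44.8 units in the adult and was at least 2.72-fold lower in the adult than at E19 (adjusted p = 0.00023). Of the other probe sets of these 2 genes, 4 were resolved, all 4 had their highest mean at P2, and 2 qualified too. Adm, adrenomedullin, a vasodilator peptide, had 177 and 213 units at E19, 314 and 511 units at P2, and 71.7 and 82.9 units in the adult, and lost its adult over E19 call without E19 pool 2 (log2 -1.20). Agtr1a, the angiotensin II receptor, had 119.5 and 132 units at E19, 305 and 261 units at P2, and 4.66 and 2.68 units in the adult. A brighter Agtr1a probe set had 781 and 733 units at E19, 887 and 1179 units at P2, and 11.8 and 7.02 units in the adult. The P2 mean of that brighter set was 1.37 times the higher other one. Ehd2, a caveolar protein, and Tal1, a transcription factor of endothelium and blood cells, had P2 pools of 313 and 325 and 231 and 241 units. Tfpi, the inhibitor of tissue factor made by endothelium, had 146 and 189 units at E19, 239 and 276 units at P2, and 61.1 and 92.3 units in the adult on the selected probe set. That set was at least 1.66-fold lower in the adult than at E19 (adjusted p = 0.013), a call lost without E19 pool 2. A brighter Tfpi probe set had 4041 and 3937 units at E19, 4314 and 4270 units at P2, and 2896 and 2604 units in the adult. The P2 mean of that brighter set was 1.08 times the higher other one. Pdgfrb, the receptor that marks pericytes, had 42.4 and 59.8 units at E19, 282 and 161 units at P2, and 76.6 and 72.1 units in the adult on the selected probe set. A brighter Pdgfrb probe set had 507 and 495 units at E19, 716 and 572 units at P2, and 138 and 181 units in the adult, a P2 mean 1.28 times the higher other one.

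Endothelial markers outside the 189 were close between E19 and P2. The rule had set aside 4 of the 19 tested markers because they rose at P2, so that this is partly fixed by the selection. Of the 15 left, 0 were called in P2 over E19 (limma), against 3.62% higher and 3.5% lower over all probe sets. At an unadjusted p under 0.05, 1 of the 15 was higher and 2 were lower. In adult over P2, 14 of these were lower, against 27.4% of all probe sets. The summed signal of these 15 markers was 14545 and 13760.4 units at E19, 14042 and 13209 units at P2, and 2948 and 3100.1 units in the adult. That of the 10 tested mural cell markers outside the 189 was 4613 and 4288 units at E19, 4529 and 4353 units at P2, and 975 and 946 units in the adult. In both sums the E19 and P2 pools overlapped. Kdr, the main receptor of vascular endothelial growth factor, had 4106 and 3920.0 units at E19, 3414 and 3013 units at P2, and 1050.5 and 1034 units in the adult, and Pecam1, which is found on all endothelium, had 350.0 and 344 units at E19, 311 and 324 units at P2, and 80.5 and 54.0 units in the adult. In such bulk tissue fewer cells of a type and less RNA per cell cannot be told apart, and the part of cell composition in the adult differences was not tested. Among these 10 mural markers, Tagln, an actin-binding protein of smooth muscle, was higher at P2 than at E19, with 11.2 and 7.81 units at E19, 131 and 203 units at P2, and 6.54 and 15.04 units in the adult, and missed the selection by its level. The Tagln call was lost without any 1 of the E19 or P2 pools.

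Matrix and stromal genes were the largest of the groups, with 20 members, of which 17 were lower in the adult than at E19 and 2 higher. The call held without any 1 array in 14 and 2 of them. Of all the selected genes, 54% were called lower in the adult than at E19 and 4.23% higher. Of all probe sets tested, 30.4% were lower and 24.2% higher. Spon1, F-spondin, a secreted adhesion protein of the neural floor plate, had 368 and 313 units at E19, 1330.1 and 1293 units at P2, and 62.7 and 62.4 units in the adult. The P2 mean was 3.85-fold the E19 mean, and the gene was at least 3.39-fold lower in the adult than at E19 (adjusted p = 0.00014). Dcn, decorin, a small proteoglycan that binds collagen, had 1493 and 1913 units at E19, 2910.3 and 3153 units at P2, and 258 and 337 units in the adult (log2 adult over E19 -2.52 ± 0.18, adjusted p = 0.00048). Mgp, the matrix Gla protein that blocks calcification, had 2034 and 1757 units at E19, 2801 and 2914 units at P2, and 814 and 1058 units in the adult (log2 adult over E19 -1.03 ± 0.16, adjusted p = 0.0045). Col6a1, a chain of collagen VI, had 312 and 341 units at E19, 684 and 621 units at P2, and 89.7 and 69.0 units in the adult. Fbln5 and Mfap4, proteins of elastic fibres, had P2 pools of 1319 and 1131 and of 528 and 640.2 units.

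Ogn, osteoglycin, had 1411 and 1175 units at E19, 4546 and 3796 units at P2, and 2243 and 2188 units in the adult on the selected probe set (log2 adult over E19 0.78 ± 0.14, adjusted p = 0.0075). Of its 3 other probe sets, all resolved, 2 were highest in the adult. Matn2, matrilin 2, had 2545 and 2674 units at E19, 6043 and 6707 units at P2, and 2932 and 3461 units in the adult, with no adult over E19 call (log2 adult over E19 0.29 ± 0.12, adjusted p = 0.094). Proteases and inhibitors of the stroma were part of this group. Ctsk, the collagen-degrading cathepsin K, had 632 and 677 units at E19, 1136 and 1085 units at P2, and 383 and 356 units in the adult (log2 adult over E19 -0.83 ± 0.09, adjusted p = 0.0016). Prss23, a serine protease, had 1590.0 and 1475 units at E19, 2962 and 2566 units at P2, and 127 and 149 units in the adult (log2 adult over E19 -3.48 ± 0.13, adjusted p = 9.3e-05). Serpine2, protease nexin 1, had 2351 and 2426 units at E19, 3169 and 4199 units at P2, and 1096 and 1264 units in the adult (log2 adult over E19 -1.02 ± 0.16, adjusted p = 0.0051). Htra3 had 214 and 184 units at E19, 344 and 307 units at P2, and 148 and 152 units in the adult, and its lower adult call was lost without E19 pool 1, E19 pool 2, adult pool 1 or adult pool 2 (log2 -0.51 to -0.29).

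The other fibroblast markers were mostly not called between E19 and P2, after 5 of the 26 tested ones had been set aside as members of the 189. Of the 21 left, 1 was higher at P2 than at E19 (Postn, periostin, log2 0.48 ± 0.08 (SE), limma adjusted p = 0.042), and 0 were lower, against 3.62 and 3.5% of all probe sets. The Postn call was lost without any 1 of the E19 or P2 pools. At an unadjusted p under 0.05, 4 were higher and 0 lower. The summed signal of these 21 markers was 47609 and 46669 units at E19, 52029 and 44111 units at P2, and 23014 and 27535 units in the adult, and the E19 and P2 pools overlapped.

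Growth signals followed the stroma. Igf1, the insulin-like growth factor, had 517 and 468 units at E19, 972 and 819.7 units at P2, and 135 and 141 units in the adult (log2 adult over E19 -1.83 ± 0.12, adjusted p = 0.00036). Its 2 other resolved probe sets were both highest at P2. Igfbp3, the main carrier of that factor in plasma, had 1097 and 1064 units at E19, 1874 and 1579 units at P2, and 77.7 and 107 units in the adult (log2 adult over E19 -3.57 ± 0.18, adjusted p = 0.00019). Ptn, pleiotrophin, a heparin-binding growth factor, was the brightest of them with 2703 and 2815 units at E19, 4761 and 4956 units at P2, and 307 and 338 units in the adult (log2 adult over E19 -3.10 ± 0.09, adjusted p = 6.2e-05). Pth1r, the receptor of parathyroid hormone and its related peptide, had 182 and 169 units at E19, 515 and 459 units at P2, and 22.7 and 58.7 units in the adult. Bmp4, a morphogen of the dorsal midline, had 719 and 588 units at E19, 1145 and 1209.8 units at P2, and 864 and 687 units in the adult, and its E19 and adult pools overlapped (log2 adult over E19 0.24 ± 0.16, adjusted p = 0.24). On the list of growth factors and binding proteins, 34 tested genes lay outside the 189. Of these, 4 were higher and 2 lower at P2 than at E19, against 3.62 and 3.5% of all probe sets.

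Immune genes numbered 16. Ly6i, a member of the Ly6 family of surface proteins, had 48.2 and 39.8 units at E19, 189.9 and 322 units at P2, and 30.6 and 32.3 units in the adult. Neither of the other stages was resolved, and the P2 mean was at least 2.47-fold above 100 units. Pf4, platelet factor 4, a chemokine of megakaryocytes and resident macrophages, had 525 and 499 units at E19, 1180.0 and 1176 units at P2, and 95.6 and 119 units in the adult (log2 adult over E19 -2.26 ± 0.13, adjusted p = 0.00024). Cd14, the lipopolysaccharide co-receptor of monocytes, had 245 and 234 units at E19, 608 and 680.1 units at P2, and 294 and 318 units in the adult. Tyrobp, an adaptor of myeloid receptors, had 148 and 128 units at E19, 199 and 243 units at P2, and 153 and 116 units in the adult, Lgals3, galectin 3, had 281 and 316 units at E19, 422 and 523 units at P2, and 270.4 and 252 units in the adult, and Spp1, osteopontin, had 188 and 138 units at E19, 261 and 232 units at P2, and 55.7 and 41.0 units in the adult. For Tyrobp and Lgals3 the adult and E19 levels were not called apart (log2 adult over E19 -0.04 ± 0.18, adjusted p = 0.85; log2 adult over E19 -0.19 ± 0.14, adjusted p = 0.29).

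Macrophage markers outside the 189 moved in the same direction between E19 and P2 in several cases. Of 17 tested, 5 were higher at P2 than at E19 and 0 lower, against 3.62 and 3.5% of all probe sets (limma). At an unadjusted p under 0.05 these counts were 11 and 0, and the share of all probe sets at that threshold was not computed. The 5 called genes were Gpnmb, Fcer1g, Aif1, Laptm5 and Cd53. Aif1, the macrophage protein Iba1, had 284 and 301 units at E19, 456 and 484 units at P2, and 301 and 344 units in the adult (log2 0.68 ± 0.10 (SE), adjusted p = 0.033). Fcer1g, the common chain of Fc receptors, had 401 and 411 units at E19, 831 and 754 units at P2, and 669.5 and 657 units in the adult (log2 0.96 ± 0.09 (SE), adjusted p = 0.019). Gpnmb, a lysosomal glycoprotein, went on to a higher adult level, with 185 and 208 units at E19, 723 and 404 units at P2, and 2920.4 and 2834 units in the adult. All 5 calls were lost without any 1 of the E19 or P2 pools. The summed signal of these 17 markers was 4991 and 5225 units at E19, 8777 and 6696 units at P2, and 15127 and 15140.3 units in the adult. The markers C1qb, C1qc and Csf1r were not called in this contrast, and Itgam lay under 10 units on all 6 arrays. The part of macrophage number in the immune peaks was not tested.

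Other immune members were mostly dim. Fcrl2, an Fc receptor-like protein of B cells, had 95.5 and 102 units at E19, 268 and 484 units at P2, and 43.2 and 22.5 units in the adult. Blnk, an adaptor of the B cell receptor that macrophages use too, had 184 and 180.5 units at E19, 562 and 385 units at P2, and 88.4 and 89.7 units in the adult and was at least 1.82-fold lower in the adult than at E19 (adjusted p = 0.0079). Only 5 of the 23 mast cell and lymphocyte markers on the array passed the filter, and 0 of those 5 were called in P2 over E19 (limma), also at an unadjusted p under 0.05. With 3.62% of all probe sets called higher and 3.5% lower, 0 of 5 does not tell them from other genes. Cxcl14, a chemokine of epithelia and stroma, had 80.3 and 96.2 units at E19, 389 and 211 units at P2, and 64.2 and 61.5 units in the adult. Gimap5, a GTPase of lymphocytes, had 154 and 81.4 units at E19, 282 and 279 units at P2, and 34.8 and 31.7 units in the adult and was at least 1.24-fold lower in the adult than at E19 (adjusted p = 0.0065). This Gimap5 call was not made once values under 100 units were set to 100. Masp1 and Masp2, proteases of the lectin pathway of complement, had P2 pools of 358 and 272 and 823 and 803 units. Casp1, the caspase of inflammasomes, had 209 and 158 units at E19, 363 and 434 units at P2, and 149.8 and 94.8 units in the adult. Ifitm3, an interferon-induced membrane protein, had 833 and 782 units at E19, 1276 and 1441 units at P2, and 231 and 289.9 units in the adult (log2 adult over E19 -1.64 ± 0.14, adjusted p = 0.00075). The 16 immune genes held 8 lower calls and 1 higher in the adult over E19, and 6 of the 8 held without any 1 array. Their share of lower calls was close to the 54% of all the selected genes. Over all probe sets 30.4% were called lower and 24.2% higher.

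**Figure D4:**
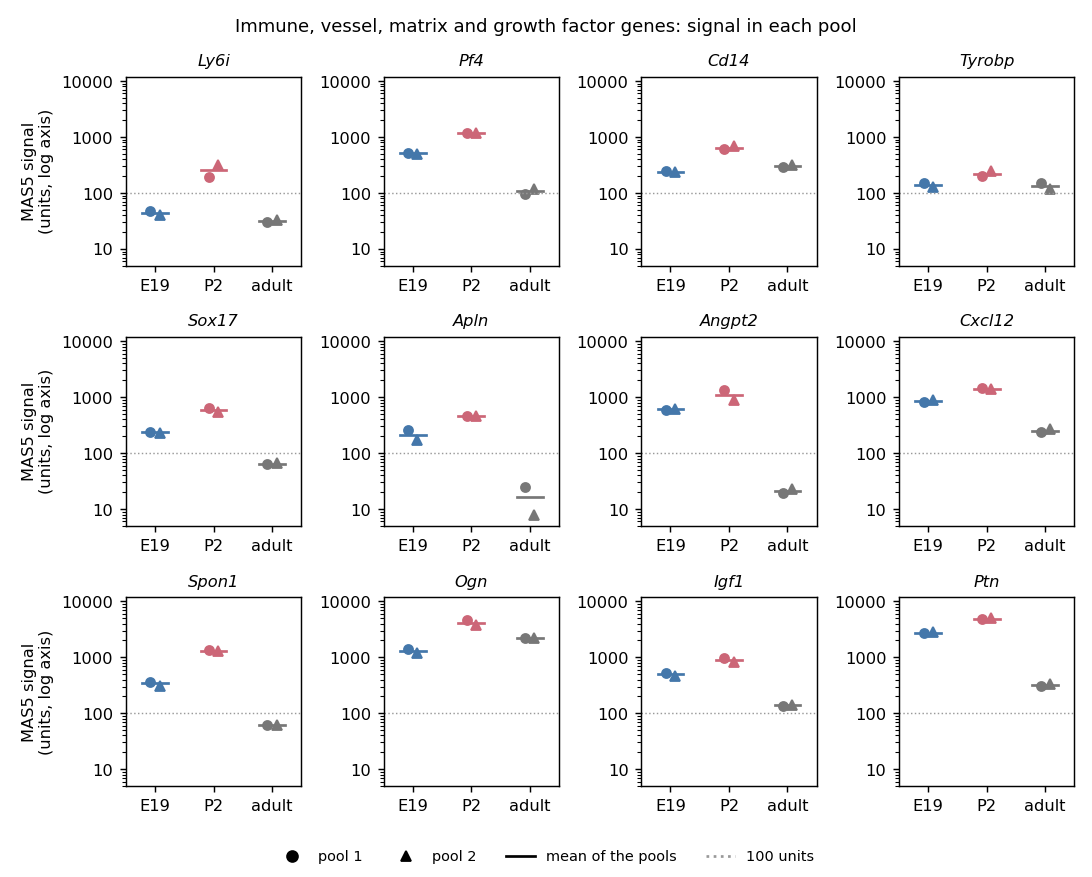
MAS5 signal of 12 immune, vessel, matrix and growth factor genes in each of the 6 pools, on a common log axis, with a bar at the mean of each stage and a dotted line at 100 units. By the rule the P2 points are highest in every panel. The adult points are lowest for the vessel genes, Igf1 and Ptn, and Cd14 and Ogn keep an adult level above that of E19.

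Genes of transport and detoxification ranged widely in signal. Sult1a1, a phenol sulfotransferase, had 3652 and 3906 units at E19, 8194 and 6654 units at P2, and 2693 and 2954 units in the adult. Its P2 mean was 1.96-fold the E19 mean and 2.63-fold the adult mean. The lower adult level (log2 adult over E19 -0.42 ± 0.13, adjusted p = 0.044) was no longer called without E19 pool 1, E19 pool 2, adult pool 1 or adult pool 2 (log2 -0.49 to -0.35). Cp, ceruloplasmin, the copper-carrying ferroxidase, had 517 and 586 units at E19, 1238 and 1011 units at P2, and 370.1 and 311 units in the adult, and both of its other probe sets qualified too. Steap4, a metalloreductase, had 86.6 and 118 units at E19, 320.4 and 289 units at P2, and 83.8 and 99.2 units in the adult. Slc3a1, a subunit of a cystine transporter, had 279.7 and 289 units at E19, 534 and 599.5 units at P2, and 217 and 153 units in the adult. Of the 308 solute carrier genes on the array 3 were among the 189 (Slc3a1, Slc6a13 and Slco1a4), near the 1.33% of all 14217 genes that were. The 37 Abc, 58 Cyp and 20 Gst genes held 0, and at that share families of this size are too small for a 0 to tell them from other genes.

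Secreted peptides and their processing enzymes also peaked. Scg3, secretogranin III, a protein of secretory granules, had 2083 and 2132 units at E19, 4304 and 4679 units at P2, and 1699 and 1870.1 units in the adult. Pam, which amidates peptides, had 831 and 944 units at E19, 1612 and 1339.7 units at P2, and 994 and 923 units in the adult, and Npy, neuropeptide Y, had 266 and 271 units at E19, 471 and 523 units at P2, and 169 and 126 units in the adult. Serpina6, the corticosteroid-binding globulin, had 245 and 271 units at E19, 698 and 1107 units at P2, and 315 and 278 units in the adult. Its P2 mean was 3.5-fold the E19 mean and 3.04-fold the adult mean. Mme, neprilysin, a peptidase of the cell surface, had 274 and 265 units at E19, 447 and 421 units at P2, and 59.0 and 91.3 units in the adult and was at least 2.7-fold lower in the adult than at E19 (adjusted p = 0.0017). Of the 6 genes of this group, Npy and Mme were lower in the adult than at E19, and the other 4 were not called. Over all probe sets 30.4% were called lower.

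The period genes Per2 and Per3 and the output factor Hlf of the circadian clock met the rule. Per2 had 566 and 604 units at E19, 1168 and 729 units at P2, and 294 and 319 units in the adult, with P2 pools 1.60-fold apart. Per3 had 159.6 and 242 units at E19, 370.2 and 294 units at P2, and 219.9 and 140.0 units in the adult. Hlf had 441 and 353 units at E19, 713 and 689 units at P2, and 349 and 305 units in the adult, and 2 of its 3 other probe sets qualified too, while the third was not resolved. The time of day at which the plexuses were collected was not found in the sources used here, and its part in these values was not tested. Per2 was called lower in the adult than at E19 (log2 adult over E19 -0.93 ± 0.23, adjusted p = 0.021), but not without E19 pool 1, E19 pool 2, adult pool 1 or adult pool 2 (log2 -0.99 to -0.87).

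Among genes of cell division, Ccnd1, cyclin D1, had 1223 and 1385 units at E19, 2559 and 2909 units at P2, and 302 and 310.3 units in the adult (log2 adult over E19 -2.09 ± 0.11, adjusted p = 0.00022). Its 2 other probe sets were both highest at P2, with P2 means 1.41 and 1.37 times the higher other mean. Neither met the rule, and the second was brighter than the selected set. Uhrf1, which maintains DNA methylation, had 64.3 and 75.4 units at E19, 306 and 204 units at P2, and 32.9 and 28.5 units in the adult. Cdc45, a part of the replicative helicase, had 148 and 143 units at E19, 246 and 217 units at P2, and 35.5 and 41.5 units in the adult. A brighter Cdc45 probe set did not peak at P2, with 335 and 327 units at E19, 351 and 308 units at P2, and 149 and 181 units in the adult. Of 37 tested cell cycle genes outside the 189, 0 were higher and 1 lower at P2 than at E19 (limma), or 1 and 4 at an unadjusted p under 0.05, while 34 were lower in the adult than at P2. Over all probe sets 3.62% were called higher and 3.5% lower in P2 over E19, and 27.4% lower in adult over P2. Of the cilium genes, Drc12, a subunit of the axonemal dynein regulatory complex, had 449 and 482 units at E19, 1275 and 1063 units at P2, and 156 and 180.1 units in the adult (log2 adult over E19 -1.47 ± 0.13, adjusted p = 0.00088). Ccno, cyclin O, which multiplies centrioles in multiciliated cells, had 133 and 131 units at E19, 158 and 242 units at P2, and 9.86 and 13.2 units in the adult. On a brighter Ccno probe set the E19 and P2 pools overlapped, with 818 and 886 units at E19, 831 and 1065 units at P2, and 7.87 and 14.5 units in the adult. The 14 tested motile cilium markers, none of them among the 189, held 0 calls in P2 over E19 (limma), with 2 higher and 1 lower at an unadjusted p under 0.05. At the shares called over all probe sets, a list of 14 is too small for 0 calls to tell it from other genes.

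Genes of RNA processing and ribosomes numbered 14. They had a median ratio of 1.70 and a median log2 of adult over E19 of 0.01, with 2 lower, 1 higher and 11 not called. Over all probe sets 30.4% were lower and 24.2% higher. Alyref, an mRNA export factor, had 977 and 991 units at E19, 1911 and 2197 units at P2, and 595 and 559 units in the adult (log2 adult over E19 -0.77 ± 0.10, adjusted p = 0.003). Pabpn1, the nuclear poly(A)-binding protein, had 1009.6 and 1170.4 units at E19, 2464 and 2352 units at P2, and 1282 and 1039.6 units in the adult, and Hnrnpa1, a splicing factor, had 1454 and 1503 units at E19, 2721 and 2596 units at P2, and 1445 and 1275 units in the adult. Nom1, a nucleolar protein, had 248 and 224 units at E19, 710.3 and 687 units at P2, and 295 and 269 units in the adult. The other probe sets of these genes mostly peaked at another stage. Of 20 resolved ones in 12 genes, 7 were highest at P2 and 0 met the rule. For Rps24, a ribosomal protein, the selected probe set had 148 and 117 units at E19, 281 and 253 units at P2, and 154 and 154 units in the adult, whereas another had 13731 and 14105 units at E19, 13934 and 12817 units at P2, and 11735 and 11288 units in the adult. For Eif4a2, a translation factor, the other probe set had 12027 and 11833 units at E19, 11292 and 10703 units at P2, and 12034 and 12767 units in the adult.

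Other probe sets of the same genes read the same RNA. Of the 189 genes, 100 had another single-gene probe set, 165 in all, and 108 of these in 73 genes reached a mean of 100 units at a stage. Of the 108, 13 met the whole rule and were passed over for a brighter one. Of the other 95, which did not meet the rule, P2 was the highest stage in 53 (55.8%), against 25.4% of all 13522 single-gene probe sets at that level that did not meet it, and a different stage was highest in 42. The median ratio of P2 to the higher other stage was 1.02 in the 95 and 0.871 in the 13522. By group, all 7 of the vessel probe sets among the 95 were highest at P2, as were 7 of 9 in cell division, 1 of 4 in matrix and stroma and 7 of 20 in RNA and ribosome. Sets of 1 gene share its RNA and can share sequence, so that these counts are a description.

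For 43 genes another probe set was brighter than the selected one, and that brightest set was highest at P2 in 25 and at another stage in 18. Otx2, the homeobox factor that sets choroid plexus identity, was among the 18. Its selected probe set had 127 and 124 units at E19, 235 and 209.6 units at P2, and 50.02 and 14.9 units in the adult, while the other had 12251 and 12608 units at E19, 11278 and 11174 units at P2, and 10059 and 10449 units in the adult. Commd7, with 191 and 178 units at E19, 709 and 640.3 units at P2, and 256 and 91.8 units in the adult on the selected set, had 1149 and 1135 units at E19, 774 and 1042 units at P2, and 796 and 755 units in the adult on a brighter one. The same held for Hnrnpa2b1, Ddx42, Hbs1l, Tmed2 and Cbl. Probe sets of 1 gene can read different ends or forms of its transcripts, and which of them a set reads was not examined here. Restricting each gene to its brightest probe set left 146 of the 189 genes.

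**Figure D5:**
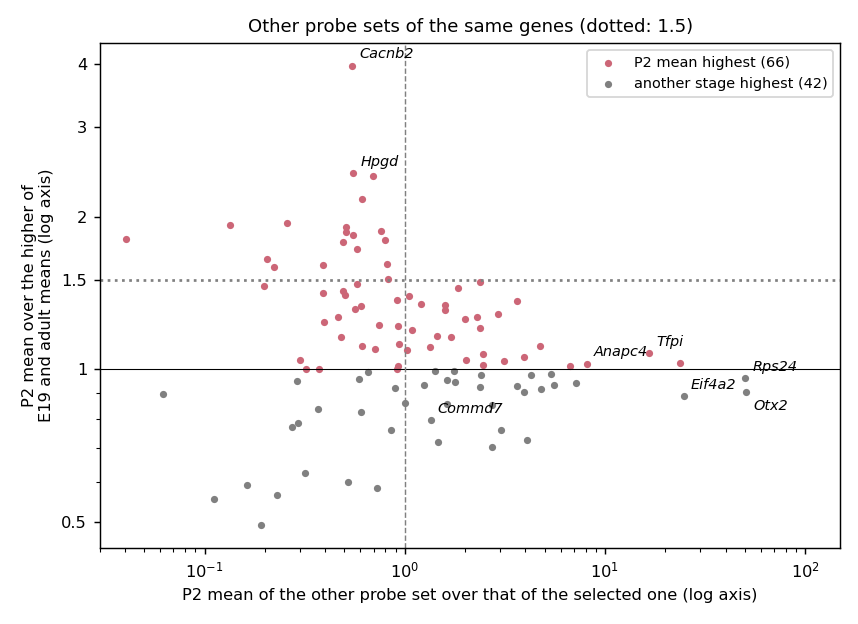
The 108 other probe sets of the same genes, by the ratio of their P2 mean to that of the selected probe set (horizontal, log axis) and by the ratio of their P2 mean to the higher of the E19 and adult means (vertical, log axis), with a dotted line at 1.5, a solid line at 1 and a dashed line at equal P2 means. The 66 points above 1 are highest at P2, 13 of which met the rule themselves, and the brightest ones on the right, among them Otx2, Rps24 and Eif4a2, lie near or below 1.

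The 85 genes in none of the groups had ratios from 1.504 to 3.66 with a median of 1.62, and P2 means from 222.3 to 4782 units. In adult over E19, 41 were lower, 2 higher and 42 not called, and 19 of the 41 held without any 1 array. Lower calls were 54% in all 189 genes and 30.4% over all probe sets. Cacnb2, a beta subunit of voltage-gated calcium channels, had 332 and 290.0 units at E19, 818 and 767 units at P2, and 50.5 and 43.8 units in the adult, and its other resolved probe set qualified too with a ratio of 3.96. Rgs7, a regulator of G protein signalling, had 107 and 93.4 units at E19, 275 and 385 units at P2, and 38.2 and 51.0 units in the adult. Fabp7, the fatty acid-binding protein of radial glia, had 178 and 321 units at E19, 848 and 537 units at P2, and 97.1 and 44.4 units in the adult. Klf11, a Krüppel-like transcription factor, had 376 and 349 units at E19, 1015 and 676 units at P2, and 114 and 157 units in the adult (log2 adult over E19 -1.44 ± 0.25, adjusted p = 0.0065). Wfdc3, a protein with a WAP domain, had 274 and 317 units at E19, 418 and 517 units at P2, and 2.30 and 39.3 units in the adult, and Rem1, a small GTPase, had 189 and 197 units at E19, 378 and 337 units at P2, and 3.40 and 45.0 units in the adult. Their fitted differences were among the 10 largest lower calls, but both adult levels were unresolved. Wfdc3 was at least 2.95-fold lower in the adult than at E19 (adjusted p = 0.025) and Rem1 was at least 1.93-fold lower in the adult than at E19 (adjusted p = 0.036), and both calls were lost without E19 pool 1, E19 pool 2, P2 pool 1 or P2 pool 2. Ccdc30, a coiled-coil protein, had 247 and 293 units at E19, 832 and 578 units at P2, and 196 and 155 units in the adult, Pitpnm3, a membrane-associated phosphatidylinositol transfer protein, had 93.7 and 146 units at E19, 303 and 281 units at P2, and 111 and 92.0 units in the adult, and Hrct1 had 205 and 175 units at E19, 458 and 451 units at P2, and 39.5 and 72.5 units in the adult. Ccdc30 and Pitpnm3 were not called between the adult and E19, whereas Hrct1 was at least 1.9-fold lower in the adult than at E19 (adjusted p = 0.0053). Nkain2, which interacts with the sodium pump, had 594 and 772 units at E19, 2219.8 and 1342 units at P2, and 1024 and 34.8 units in the adult, so that its adult pools disagreed widely. Pmp22, a membrane protein of myelin that fibroblasts make too, had 2382 and 2480.1 units at E19, 4003 and 3709.8 units at P2, and 504 and 504 units in the adult (log2 adult over E19 -2.27 ± 0.09, adjusted p = 9.8e-05), and its other probe set qualified too. Ier3 and Nr4a3, immediate early genes, had 379 and 429 units at E19, 676 and 782 units at P2, and 213 and 193 units in the adult for Ier3, and 163 and 182 units at E19, 287 and 241 units at P2, and 24.5 and 45.5 units in the adult for Nr4a3. Of 25 tested immediate early and heat shock genes outside the 189, 2 were higher and 0 lower at P2 than at E19 (limma), or 5 and 7 at an unadjusted p under 0.05. Over all probe sets the adjusted calls were 3.62 and 3.5%, and the 2 higher calls were lost without any 1 of the E19 or P2 pools.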

How the data were processed

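RNA of the lateral ventricle choroid plexus of Sprague-Dawley rats was hybridised to Affymetrix Rat 230 2.0 arrays, with 2 pools for each of E19, P2 and adult. The authors deposited linear signal intensity from the MAS5 algorithm of Affymetrix Expression Console (its version is not given in the sources used here), scaled to a common trimmed mean per array. Pools held 5 developing or 3 adult animals by the methods of the study, and 6 to 10 plexuses by the labels. Precision is limited by the small number of arrays. Very low MAS5 signals are not resolved, so that folds are bounds against 100 units where both pools of a stage lay under it, and none is given where both stages did.

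Of 31099 probe sets, 57 were controls, and 20826 of the others named a single gene, 436 several and 9780 none. Positions, names and promoters were taken from RefSeq on GRCr8. The 17808 probe sets that averaged 100 units or more at a stage were fitted on the log2 scale (limma 3.58.1, R 4.3.3; a mean for every stage, 3 residual and 2.15 prior degrees of freedom), with Benjamini-Hochberg adjustment over all of them. Every p for a gene comes from limma, and the script was tested on simulated data. A list gene was read from its brightest probe set. Contrasts of P2 had chosen the genes, so that the 189 were tested only in adult over E19. The members and lists were chosen with earlier results of these data known. Named genes were the 30 largest ratios, genes on lists, the largest adult over E19 calls, genes near a threshold and genes with discordant P2 pools, and others were named after their values were seen. Alternatives were other thresholds, scalings, filters and probe set choices, and leaving out each array.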

Additional observations from a re-analysis of the deposited data

How the results depend on the processing

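The number of genes meeting the rule was 189, and 55 with a ratio of 2 in any probe set. It was 275 and 126 with minimum P2 means of 100 and 400 units, 160 with arrays centred on their median (155 of them among the 189), 171 with quantile normalization (166 shared), 186 with geometric means and 146 with only the brightest probe set of a gene. With 1 array left out it ran from 178 to 227, and 154 of the 189 genes met the rule without P2 pool 1 and 155 without P2 pool 2.

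In adult over E19 the 102 lower calls ran from 69 (no filter, and likewise an adjusted p under 0.01) to 111 (prior variance with a trend), and from 71 to 101 with 1 array left out. The 8 higher calls were 5 without the filter and 5 at an adjusted p under 0.01, 13 with quantile normalization and 23 with centred arrays, and 6 to 9 with 1 array left out. Of the 110 called genes, 65 kept their call under all 15 alternatives of the fit. The uncalled Commd7 (log2 -0.27) was higher in the adult without adult pool 2 (log2 0.47, adjusted p = 0.043) and lower without adult pool 1 (log2 -1.005, adjusted p = 0.0058).

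Among the 478 tested list genes outside the 189, the 33 higher and 18 lower calls in P2 over E19 were less stable. They were 0 and 0 without the filter and at an adjusted p under 0.01, 43 and 29 with a filter at 200 units, 58 and 45 with values under 100 units set to 100, and 77 and 49 with a prior trend. With 1 array left out they were 0 to 32 higher and 0 to 17 lower. The 133 higher and 199 lower calls in adult over P2 were 100 to 118 and 163 to 191 with 1 array left out.

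Pools share numbers across stages, but same-numbered pools did not deviate together (correlations -0.06, -0.04 and 0.01). With the pool number as a replicate block the counts were 96 and 7 in adult over E19, and 3 and 1 in P2 over E19 on the lists. On the given strand only, GGGCGG was in 39.7% and AGGTCA in 7.80% of the 141 windows. The cause of these differences was not tested.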
